A study of Mus musculus with 12 samples.

Results

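The interferon response genes described here are 35 listed genes that cells switch on when interferon signals reach them. A gene was counted as measured when a probe set, the group of short DNA probes that reads 1 transcript on the array, was annotated with its symbol alone. By this rule 30 of the 35 genes were measured, of 12393 genes on the array that could be named in the same way. Isg15, Oas1g, Ifi44, Ddx58 and Xaf1 had no such probe set and were not analysed here; for Isg15, the probe set carrying its name is shared with another symbol. The 30 genes had 41 probe sets, 22 genes having 1 each and 8 having more, and each gene is represented by the brightest of its probe sets, taken as the one with the largest 12-array mean.

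Liver RNA of 12 C57Bl/6J mice aged 6 to 8 weeks was hybridised to Affymetrix arrays, 1 animal per array and 3 animals in each of 4 groups. The groups were wild-type control, wild-type given methyl methane sulfonate (MMS), Aag knock-out control and Aag knock-out given MMS. MMS, an agent that methylates DNA bases, was injected once into the peritoneum at 75 mg/kg, and livers were taken 6 hours later. Aag, whose gene symbol is Mpg, is a DNA glycosylase that removes methylated bases and so begins base excision repair; the labels give no further detail of the allele. The labels do not say what the control mice received or at what time of day livers were collected. The design allows the MMS response to be read in each genotype, the genotypes to be compared with and without MMS, and the 2 responses to be set against each other.

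Type I interferons are secreted proteins made when a cell detects foreign or misplaced nucleic acid. They bind a cell-surface receptor whose kinases activate transcription factors, STAT2 with IRF9 among them, that bind a DNA element called the interferon-stimulated response element (ISRE) in the promoters of the genes they induce; interferon gamma acts through another element, the gamma-activated site (GAS). The induced proteins sense viral RNA, block translation, alter nucleotides or limit the signal itself, and hepatocytes, Kupffer cells and liver endothelial cells all respond to interferons.

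The promoters of Rsad2, Ifit1, Ifit3 and Oasl1 are shown because their transcripts carry much of what follows and because they differ in this element. Each run is the 250 bases before the annotated start in RefSeq (mouse build GRCm38.p6), written 5′ to 3′ along the gene's own strand, with every match to the ISRE core on either strand in capitals. Rsad2 lies on the minus strand at chr12:26456453-26456702, Ifit1 on the plus strand at chr19:34640639-34640888, Ifit3 on the plus strand at chr19:34583279-34583528 and Oasl1 on the plus strand at chr5:114922990-114923239.
Rsad2: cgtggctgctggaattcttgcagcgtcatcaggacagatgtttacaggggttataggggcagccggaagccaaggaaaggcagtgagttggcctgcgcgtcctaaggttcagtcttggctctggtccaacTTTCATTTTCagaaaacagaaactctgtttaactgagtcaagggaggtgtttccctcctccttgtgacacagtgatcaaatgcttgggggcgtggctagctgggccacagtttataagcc
Ifit1: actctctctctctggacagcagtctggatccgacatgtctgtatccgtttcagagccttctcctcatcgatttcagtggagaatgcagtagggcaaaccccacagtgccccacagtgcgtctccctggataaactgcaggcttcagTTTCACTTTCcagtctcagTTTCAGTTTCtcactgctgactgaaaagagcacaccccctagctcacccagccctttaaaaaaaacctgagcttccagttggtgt
Ifit3: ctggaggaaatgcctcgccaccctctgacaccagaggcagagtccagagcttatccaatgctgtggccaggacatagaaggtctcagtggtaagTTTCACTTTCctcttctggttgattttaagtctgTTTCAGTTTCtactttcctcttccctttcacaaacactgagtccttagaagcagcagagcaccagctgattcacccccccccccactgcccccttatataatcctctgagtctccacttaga
Oasl1: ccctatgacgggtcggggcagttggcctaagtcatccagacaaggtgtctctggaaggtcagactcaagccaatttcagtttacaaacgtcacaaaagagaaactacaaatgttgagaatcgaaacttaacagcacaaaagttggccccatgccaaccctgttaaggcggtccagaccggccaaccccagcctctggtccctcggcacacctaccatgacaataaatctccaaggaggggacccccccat

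The core was spelled GAAANNGAAA and searched on both strands in windows from 250 bases before to 50 bases after the start. Of the 35 listed genes, 28 had at least 1 window that was searched, and 16 of the 28 held the core. Listed genes on chromosome 18, where Iigp1 lies, were left out of the search. The count over all windows kept that chromosome. Counted by window, 16 of 32 did, against 3.44% of all 32851 RefSeq windows of that length. The Rsad2 window held 1 match and those of Ifit1 and Ifit3 held 2 each, whereas the letters were not found in the window of Oasl1. Bst2, Irgm1, Oas1a, Oas1g and 1 Gbp3 window also held 2 matches each, and Isg15 held 3. In these windows neighbouring matches shared bases, which those of Ifit1 and Ifit3 did not. The GAS core was searched in 2 spellings, which share bases with each other and can share bases with the ISRE core. The stricter spelling, TTCCNGGAA, was searched first and was held by 2 of the 28 genes (6.25% of their windows, against 1.15% of all windows). The looser TTCNNNGAA was chosen after that count had been seen, and was held by 7 of the 28 (21.9%, against 8.3% of all windows). These are letter matches in a fixed window and were not tied to binding.

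Some facts of the whole series bear on the results. Array medians lay between 7.42 and 7.75 on the log2 scale. By correlation over all probe sets, 9 of 12 arrays were closest to an array of their own group; the others were control knock-out array 3, closest to MMS knock-out array 3, MMS wild-type array 1, closest to a control knock-out array, and MMS knock-out array 3, closest to a control wild-type array. The first Mpg probe set separated the genotypes, with means of 6.43 and 6.72 in control and MMS wild-type liver against 5.33 and 5.47 in the knock-out, with no overlap. The second and brighter Mpg probe set overlapped between the genotypes, with means of 7.97 and 8.24 in the wild type and 7.66 and 7.92 in the knock-out. Of 14 hepatocyte markers 12 were measured, all with means of 11.6 or more. The log2 signal of the 5′ control probe sets minus that of the 3′ ones (mean of actin and Gapdh), a sign of RNA quality, was -1.61, -1.51 and -2.46 on the 3 MMS knock-out arrays and between -2.66 and -2.0 on all others. It therefore sets MMS knock-out arrays 1 and 2 apart, while array 3 lies within the range of the other groups. Its part in results on the MMS knock-out group was tested only where a value with it as a covariate is given.

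In wild-type liver, 6 antiviral transcripts fell after MMS. Among the 30 genes, these 6 were the ones past the threshold and 0 rose, at an adjusted p under 0.05 (limma, 22626 probe sets tested): Rsad2, Cmpk2, Ifit1, Ifit2, Oasl1 and Usp18. Of all probe sets, 4.45% fell and 1.99% rose. The median log2 change of the 30 was -0.44 against -0.06 over all genes, and 22 of 30 were negative, as were 7157 of 12393 genes. At an unadjusted p under 0.05 there were 16, against 24.5% of all genes. The MMS values lay wholly below the control values in 15 of the 30 genes, as in 20.5% of all probe sets, and wholly above in 3, as in 11.3%. The count of 6 depends on single arrays, though leaving out the other 5 one at a time gave 4 to 6 genes: it was 0 without control wild-type array 1 or 3 or without MMS wild-type array 1 or 2, 2 without MMS wild-type array 3 or control knock-out array 2, and 3 without control wild-type array 2. Over all settings tried, the lower calls among all probe sets also moved, from 223 to 2911, against 1007 as first fitted. Centring each array on its median left 1 of the 6 past the threshold. The median change of the 30 genes was then -0.24 with 18 negative, while the median of all probe sets moved from -0.05 to 0.14. The clock gene Dbp, whose level follows time of day, had means of 8.30 in these controls and 12.63 after MMS. Its part in the wild-type response was not tested.

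In knock-out liver after MMS, Oasl1 and Parp14 rose and 0 genes fell, 6.67% of the 30 where 0.747% of all probe sets rose and 0.760% fell. The median log2 change was 0.19 against -0.06 over all genes, and 20 of 30 were positive, as were 5403 of 12393 genes. Centring the arrays gave a median of 0.12 with 12 of the 30 negative. At an unadjusted p under 0.05 there were 14 genes, against 26.1% of all genes. The MMS values lay wholly above the controls in 9 genes, against 12.9% of all probe sets, and wholly below in 2 (6.67%, against 13.8%). Both calls depend on the arrays: 9 genes passed upward without MMS knock-out array 3, 4 without MMS wild-type array 1 or 2, 1 without control knock-out array 3 or MMS wild-type array 3, and 0 without any other single array. Over all settings tried, the higher calls among all probe sets also moved, from 0 to 3168, against 169 as first fitted. With the 5′ to 3′ control signal as a covariate 0 passed, the change of Oasl1 being 1.01 (adjusted p = 0.255) and that of Parp14 0.49 (adjusted p = 0.375).

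**Figure D1:**
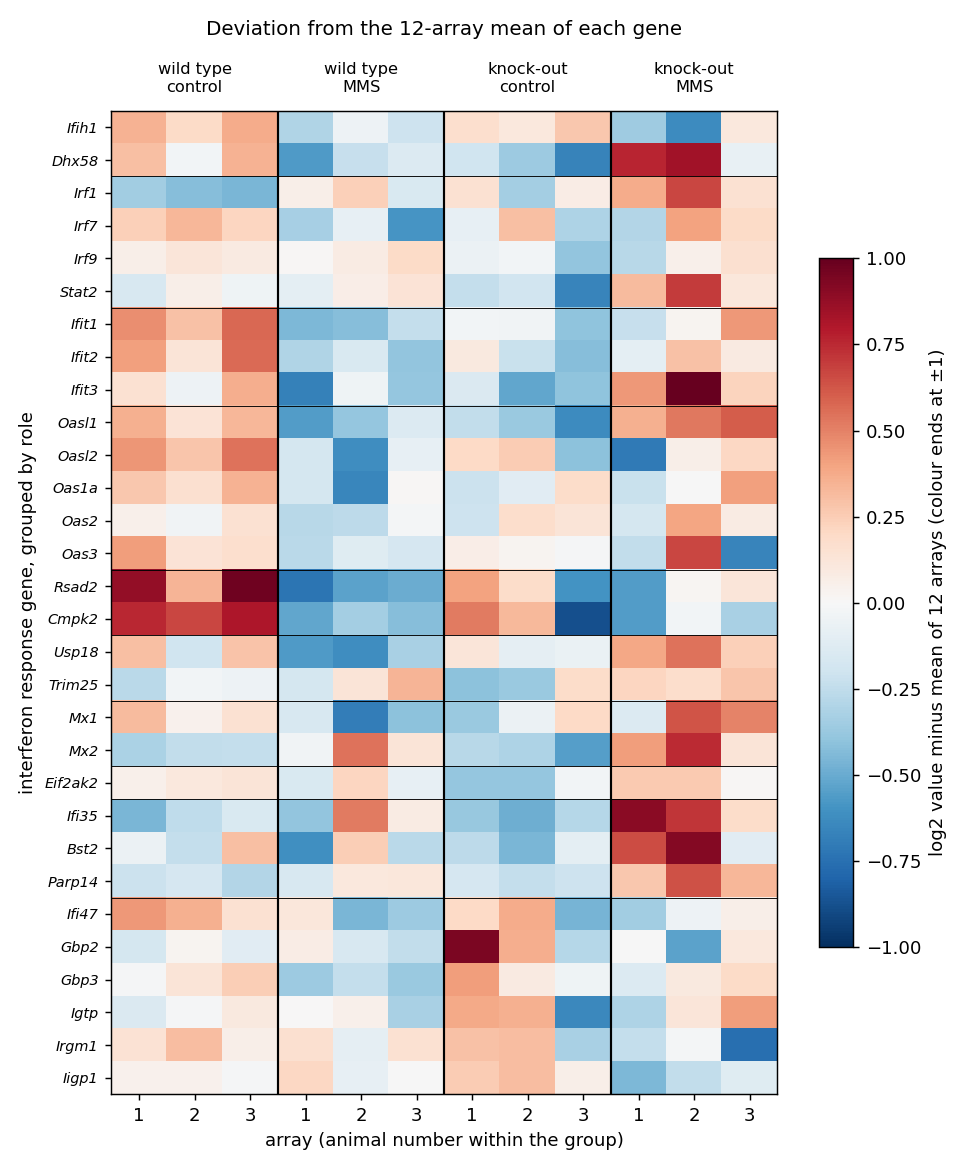
Each cell is 1 gene on 1 array, coloured by its log2 value minus the gene's mean over the 12 arrays, with genes grouped by role and colour ending at ±1. On the control wild-type arrays 19 to 22 of the 30 genes are above their mean, on the MMS wild-type arrays 7 to 10, and MMS knock-out array 2 is the highest of the 12 for 13 of the 30 genes.

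The arrays within a group were not alike. MMS knock-out array 2 was the highest of the 12 in 13 of the 30 genes, with a median deviation from the gene means of 0.28. Control knock-out array 3 was the lowest in 9 genes, with a median deviation of -0.29. The 3 control wild-type arrays had median deviations of 0.15, 0.08 and 0.16, and the 3 MMS wild-type arrays -0.22, -0.11 and -0.16. The wild-type groups thus did not overlap in this summary. Nor did the medians of all probe sets on the same arrays, at 7.64, 7.63 and 7.75 in controls against 7.42, 7.49 and 7.53 after MMS.

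Rsad2 encodes viperin, a radical enzyme that makes a chain-terminating nucleotide, and Cmpk2, its neighbour in the genome, a mitochondrial nucleotide kinase. Rsad2 read 11.82, 11.28 and 11.91 in control wild-type liver and 10.21, 10.41 and 10.44 after MMS. In knock-out liver it read 11.35, 11.13 and 10.34 in controls and 10.39, 10.96 and 11.06 after MMS. All 3 wild-type MMS arrays lay below all 3 wild-type controls, while the knock-out groups overlapped, control array 3 being the lowest of them. In wild-type liver Rsad2 fell by 1.32 on the log2 scale (SE 0.27, adjusted p = 0.0212), 2.49-fold, and its change in knock-out liver was -0.14 (SE 0.27, adjusted p = 0.778). A second, dimmer Rsad2 probe set also fell in wild-type liver, by 1.64 (SE 0.30, adjusted p = 0.0131), and the remaining one, with a mean of only 4.85, differed by 0.16 and was not called. In knock-out liver the second probe set had a change of 0.27, of the opposite sign to the first and not called. Cmpk2 read 8.32, 8.23 and 8.37 in wild-type controls and 7.04, 7.22 and 7.14 after MMS, against 8.08, 7.89 and 6.69 in knock-out controls and 7.0, 7.53 and 7.24 after MMS. The low value of control knock-out array 3 gave that group an SD of 0.76, where the wild-type controls had 0.07. Cmpk2 fell by 1.17 in wild-type liver (SE 0.30, adjusted p = 0.0424), and its knock-out change was -0.29 (SE 0.30, adjusted p = 0.561). Its other, dimmer probe set, with a mean of 6.10, had a change of -0.02 in wild-type liver and was not called.

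The Ifit genes encode proteins that bind viral RNA ends and hold back its translation. Ifit1 read 11.18, 11.02 and 11.30 in wild-type controls and 10.28, 10.30 and 10.48 after MMS. In the knock-out it read 10.70, 10.69 and 10.32 in controls and 10.49, 10.75 and 11.16 after MMS. It fell in wild-type liver by 0.81 (SE 0.18, adjusted p = 0.0244) with no overlap, and the knock-out groups, which overlapped, differed by 0.23 (SE 0.18, adjusted p = 0.442). Ifit2 read 8.54, 8.27 and 8.70 in wild-type controls and 7.84, 7.99 and 7.75 after MMS, a fall of 0.65 (SE 0.17, adjusted p = 0.0488). Its knock-out values were 8.23, 7.91 and 7.71 in controls and 8.04, 8.43 and 8.22 after MMS, which overlap. The wild-type groups of Ifit3 overlapped narrowly, at 10.09, 9.89 and 10.30 in controls against 9.26, 9.89 and 9.55 after MMS (change -0.52, SE 0.23, adjusted p = 0.198). In the knock-out it read 9.79, 9.42 and 9.53 in controls and 10.37, 10.98 and 10.16 after MMS, all 3 above the controls, a change of 0.92 (SE 0.23) that missed the threshold at an adjusted p of 0.0617.

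Oasl1 belongs to the oligoadenylate synthetase family, whose active members make the messenger that switches on RNase L; Oasl1 itself lacks that activity and restrains translation of Irf7 mRNA. It passed the threshold in both genotypes and in opposite directions. Oasl1 read 8.83, 8.62 and 8.81 in wild-type controls and 7.92, 8.09 and 8.34 after MMS, but 8.23, 8.10 and 7.85 in knock-out controls and 8.83, 9.01 and 9.08 after MMS. Neither pair of groups overlapped, and the MMS knock-out arrays sat at or above the wild-type controls. It fell by 0.64 in wild-type liver (SE 0.15, adjusted p = 0.0328) and rose by 0.91 in knock-out liver (SE 0.15, adjusted p = 0.0313). The highest Oasl1 value of all was on MMS knock-out array 3. With the 5′ to 3′ control signal as a covariate, its knock-out change did not pass the threshold. The other 4 measured members of the family, Oasl2, Oas1a, Oas2 and Oas3, had changes between -0.72 and -0.24 in wild-type liver and between -0.16 and 0.11 in knock-out liver, none past the threshold. Oas3 is dim, with a mean of 5.76 close to the 25th percentile of all values (5.68).

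Usp18 encodes the protease that strips ISG15 from proteins and damps interferon receptor signalling. It read 9.91, 9.40 and 9.89 in wild-type controls and 9.04, 8.98 and 9.28 after MMS, and fell by 0.63 (SE 0.16, adjusted p = 0.0424). In the knock-out it read 9.73, 9.51 and 9.54 in controls and 9.99, 10.14 and 9.84 after MMS, which do not overlap, a change of 0.40 (SE 0.16, adjusted p = 0.159). Trim25, a ligase in RNA sensing, had changes of 0.21 and 0.42 in the wild type and knock-out and was not called.

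**Figure D2:**
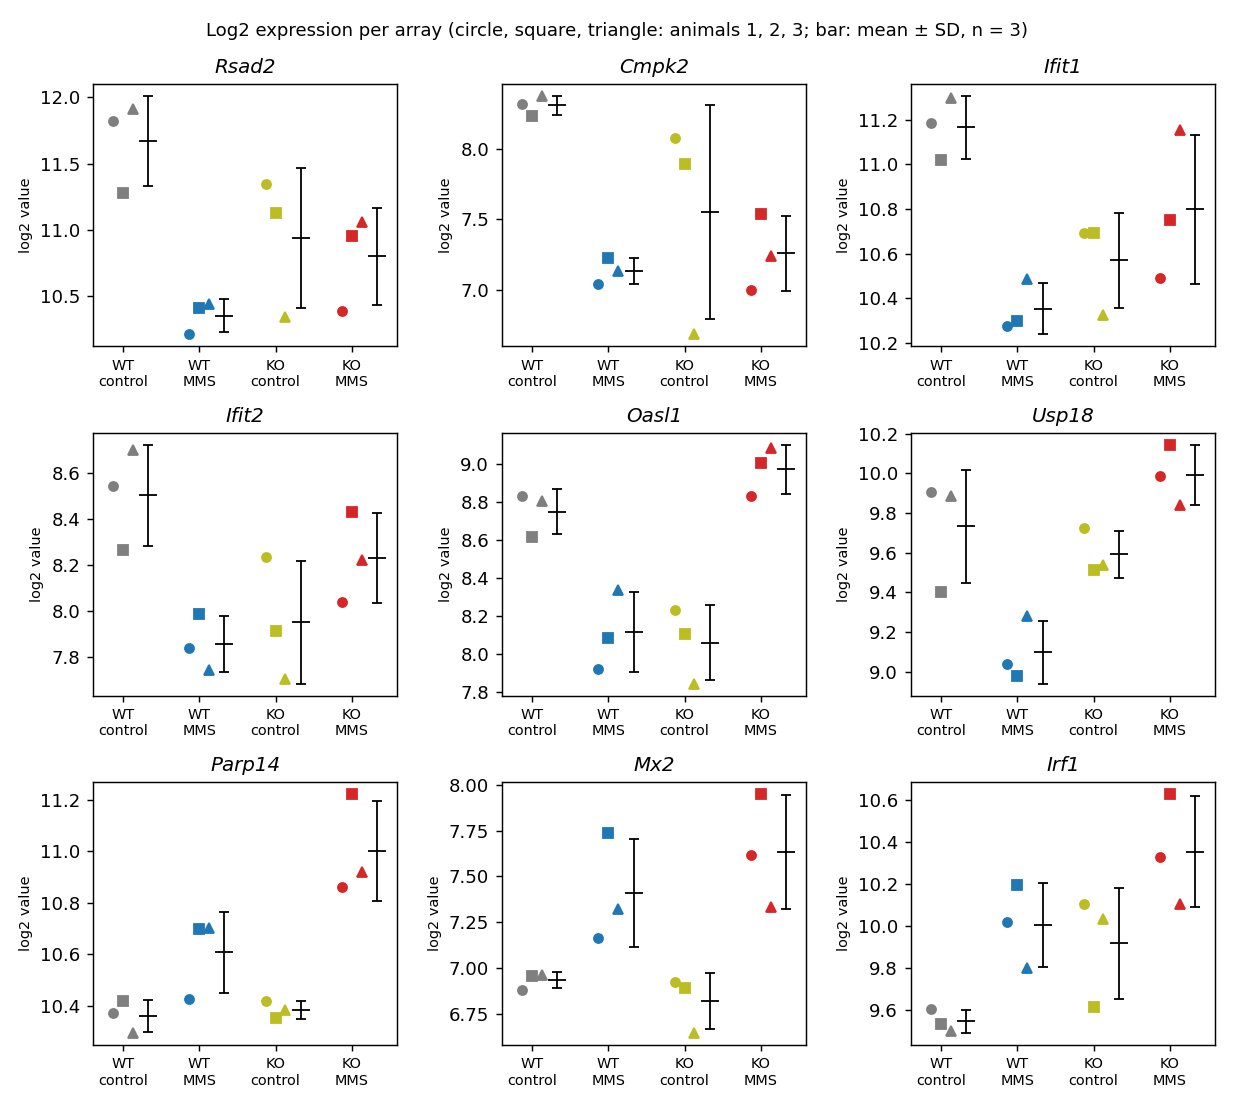
Log2 values of 9 genes on each array, by group, with circle, square and triangle for animals 1, 2 and 3 and a bar for the mean ± SD of 3 animals; vertical axes do not start at 0. Rsad2, Cmpk2, Ifit1, Ifit2, Oasl1 and Usp18 are lower on the MMS than on the control wild-type arrays, and Oasl1 and Parp14 are higher on the MMS than on the control knock-out arrays.

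The RNA sensors and the signalling factors were mostly below the threshold. Ifih1, which encodes the long double-stranded RNA sensor MDA5, read 12.04, 11.88 and 12.06 in wild-type controls and 11.38, 11.63 and 11.48 after MMS. It read 11.85, 11.79 and 11.95 in knock-out controls and 11.33, 11.06 and 11.79 after MMS. Its changes were -0.49 and -0.47, and the difference between them was 0.02 (SE 0.24, adjusted p = 0.976). Dhx58, which encodes the related regulator LGP2, read 7.30, 6.98 and 7.35 against 6.44, 6.77 and 6.86 in wild-type liver, and 6.80, 6.64 and 6.33 against 7.76, 7.84 and 6.92 in knock-out liver. Neither pair overlapped, yet neither change was called (-0.52, adjusted p = 0.222, and 0.92, adjusted p = 0.0687), and the knock-out value is smallest on MMS array 3. Of its dimmer probe sets, one had a change of -0.78 in knock-out liver, the opposite sign. Stat2, part of the factor that binds the ISRE, had a change of 0.08 in wild-type liver and of 0.74 in knock-out liver (SE 0.17, adjusted p = 0.0569), where it read 7.65, 7.70 and 7.23 in controls and 8.20, 8.58 and 8.00 after MMS; the change of its other probe set was 0.01 there. Irf7, the amplifier of type I interferon production, had changes of -0.60 and 0.13, and Irf9, the DNA-binding partner of STAT2, of 0.01 and 0.14, none called.

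Parp14, Mx2, Irf1 and Ifi35 had positive changes in both genotypes. Parp14 encodes an ADP-ribosyltransferase, and read 10.37, 10.42 and 10.29 in wild-type controls, 10.43, 10.70 and 10.70 after MMS, 10.42, 10.35 and 10.38 in knock-out controls and 10.86, 11.22 and 10.92 after MMS. It rose by 0.62 in knock-out liver (SE 0.13, adjusted p = 0.0472), where its groups stood well apart, and its wild-type change was 0.25 (SE 0.13, adjusted p = 0.282). Mx2, a dynamin-like antiviral GTPase, read 6.88, 6.96 and 6.96 against 7.17, 7.74 and 7.32 in wild-type liver and 6.92, 6.89 and 6.65 against 7.62, 7.95 and 7.33 in knock-out liver. Neither pair overlapped, with changes of 0.48 (adjusted p = 0.148) and 0.81 (SE 0.18, adjusted p = 0.0547). Irf1 read 9.61, 9.53 and 9.5 against 10.02, 10.20 and 9.80 in wild-type liver and 10.11, 9.61 and 10.03 against 10.33, 10.63 and 10.11 in the knock-out, changes of 0.46 and 0.44. Ifi35 read 8.27, 8.48 and 8.58 against 8.34, 9.25 and 8.82 in wild-type liver and 8.35, 8.24 and 8.45 against 9.63, 9.44 and 8.92 in the knock-out, changes of 0.36 and 0.98. The wild-type groups of Ifi35 and the knock-out groups of Irf1 overlapped, and the other pairs did not. Mx1, the paralog of Mx2, had changes of opposite sign, -0.59 and 0.41, neither called.

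Averaged over the genotypes, 7 genes passed the threshold. Mx2, Parp14, Ifi35 and Irf1 rose and Rsad2, Cmpk2 and Ifih1 fell, 4 higher (13.3%, where 4.61% of all probe sets were) and 3 lower of the 30, where 6.66% were. Mx2 rose by 0.64 (SE 0.13, adjusted p = 0.0121) and Parp14 by 0.43 (SE 0.09, adjusted p = 0.0144), each at p = 0.005 in a two-sided exact permutation test, the smallest that the 400 regroupings within genotypes allow. Both kept the call when any single array was left out. Ifi35, an interferon-induced leucine zipper protein, rose by 0.67 (SE 0.17, adjusted p = 0.0273, exact p = 0.015), and Irf1, a transcription factor of interferon gamma signalling, by 0.45 (SE 0.12, adjusted p = 0.0408, exact p = 0.01). Ifih1 fell by 0.48 (SE 0.12, adjusted p = 0.0285, exact p = 0.005). Rsad2 fell by 0.73 (SE 0.19, adjusted p = 0.0357) and Cmpk2 by 0.73 (SE 0.21, adjusted p = 0.0471), each with an exact p of 0.03. The dimmer Rsad2 probe sets had averaged changes of -0.68 (adjusted p = 0.0601) and 0.39, and that of Cmpk2 -0.03, none called. The lower calls numbered 0 without control wild-type array 1 or 3, control knock-out array 1 or 2, MMS wild-type array 3 or MMS knock-out array 1, and 1 without MMS wild-type array 1 or 2. The higher calls numbered 2 without control wild-type array 1 or 2, control knock-out array 1 or 2, MMS wild-type array 2 or MMS knock-out array 1 or 2. Over all settings tried, 772 to 3969 of all probe sets passed downward and 388 to 3490 upward. With the 5′ to 3′ control signal as a covariate, only Mx2 stayed past the threshold (0.47, adjusted p = 0.0485).

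**Figure D3:**
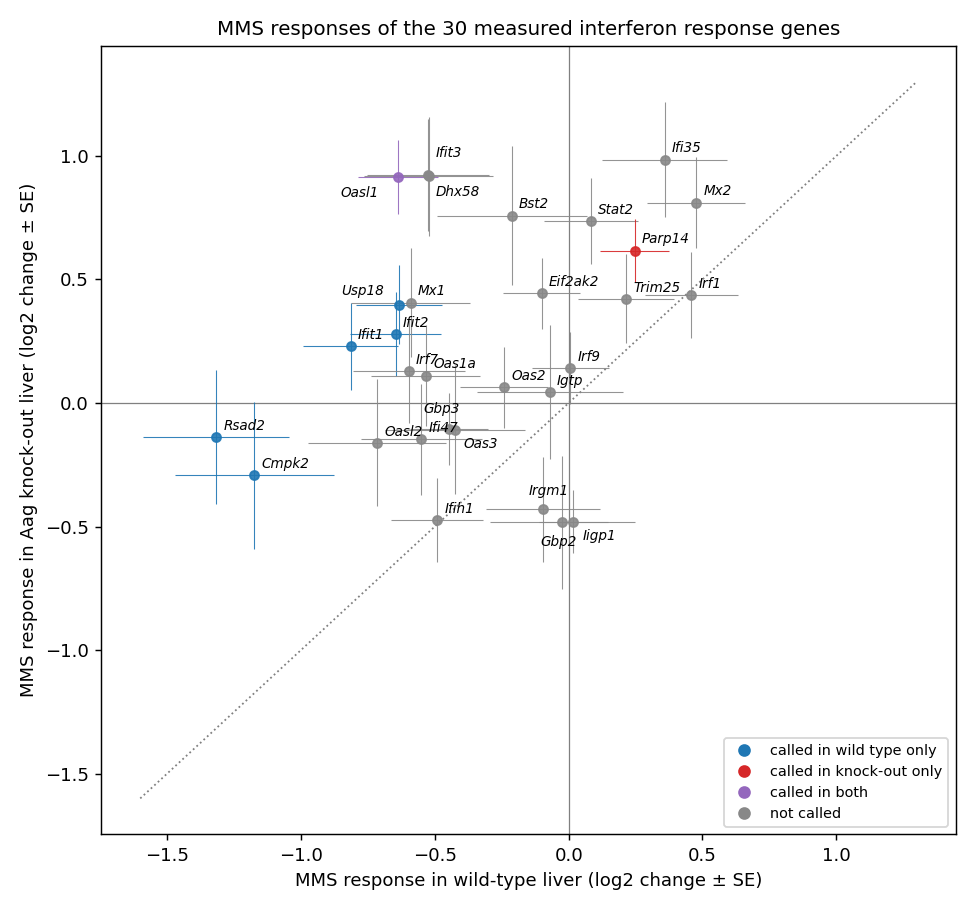
Each point is 1 of the 30 genes, with its MMS response in wild-type liver across and in knock-out liver upward, as log2 change ± SE, coloured by the genotype in which it passed the threshold; the dotted line marks equal responses. Of the 30 genes, 13 lie upper left, lower in wild type and higher in knock-out, and Oasl1 passed the threshold in both.

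Set side by side, 13 genes were lower in wild type and higher in knock-out liver, 9 were lower in both, 7 higher in both and 1 the reverse. The test of the difference of the 2 responses called 0 of the 30 and 0 of all probe sets in either direction (0% lower and 0% higher; limma). The unadjusted p was under 0.05 in 14 of the 30, against 18.5% of all genes. The median difference, knock-out response minus wild-type response, was 0.55 against 0.06 over all genes. Of the 30 genes, 26 were positive, as were 6840 of 12393 genes. Centring the arrays took the median difference to 0.29 with 8 of the 30 negative, while the median of all probe sets went from 0.05 to -0.21. Oasl1 had the smallest p, with a difference of 1.55 (SE 0.21, 95% interval 1.09 to 2.01, adjusted p = 0.0649), followed by Usp18 at 1.03 (SE 0.23, adjusted p = 0.113) and Ifit3 at 1.45 (SE 0.32, adjusted p = 0.117). Without MMS knock-out array 3, 2 genes passed, and without control knock-out array 3, 1 did. Over all settings tried, 0 to 1496 of all probe sets passed upward. Iigp1, a GTPase that disrupts pathogen vacuoles, went the other way at -0.50, but its other probe set had a difference of 0.05. With the 5′ to 3′ control signal as a covariate 0 genes passed and the median difference was 0.42.

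**Figure D4:**
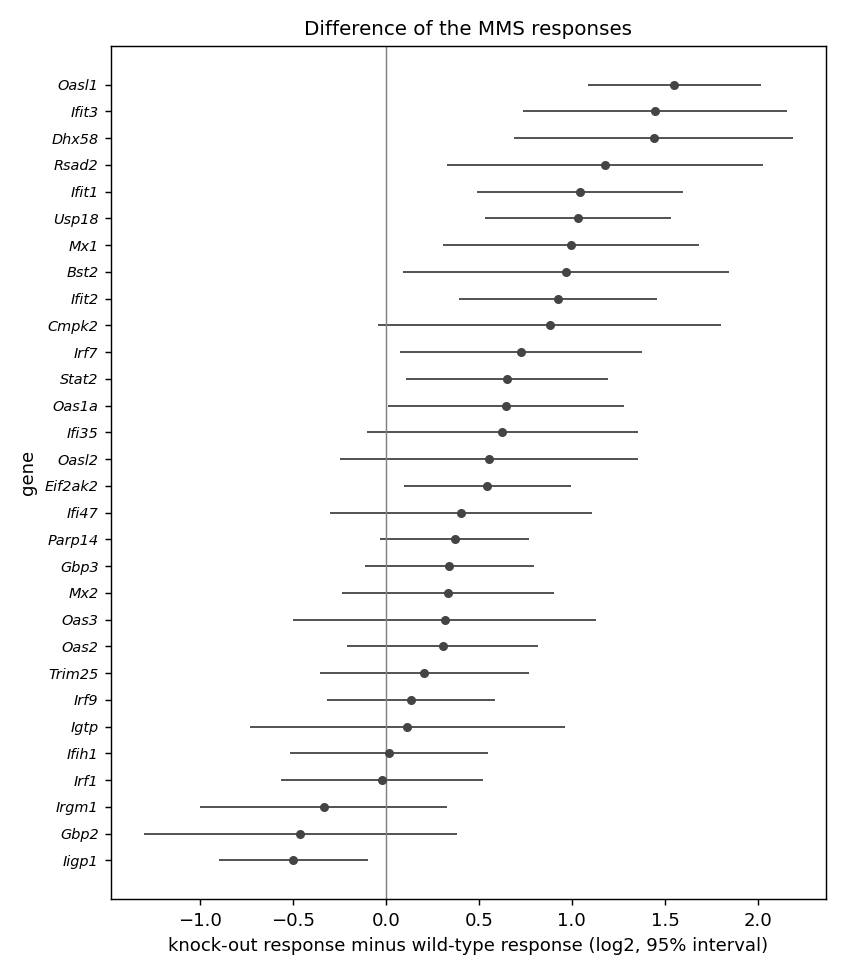
Difference of the MMS responses (knock-out minus wild type, log2) for each of the 30 genes, as a point with its 95% interval, unadjusted for multiple tests. Oasl1 is largest at 1.55, 26 of the 30 points lie above 0, and none passed the threshold after adjustment.

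The genotypes themselves were also compared. Without MMS, 0 of the 30 differed at the threshold (limma; 8 at an unadjusted p under 0.05, against 7.26% of all genes), where 0.0221% of all probe sets were lower and 0.0177% higher in the knock-out. The median log2 difference, knock-out minus wild type, was -0.25 against -0.02 over all genes. Of the 30, 24 were negative, as were 6680 of 12393 genes. Centring the arrays gave a median of -0.15 with 21 negative. The knock-out controls lay wholly below the wild-type controls in 11 genes (36.7%, against 10.8%) and wholly above in 2 (6.67%, against 7.52%). The smallest p belonged to Oasl1 at -0.69 (adjusted p = 0.356), Ifit1 at -0.60 (adjusted p = 0.462) and Ifit2 at -0.55 (adjusted p = 0.499). The clock gene Dbp, chosen after its values were seen, had means of 8.30 in control wild-type and 11.66 in control knock-out liver. Its means were 12.63 in MMS wild-type and 12.50 in MMS knock-out liver. The wild-type controls were therefore far below every other group in a gene that follows time of day. These controls enter this comparison, the MMS response in wild-type liver and the difference of the responses. They also enter both averaged comparisons, the MMS response over genotypes and the knock-out effect over treatments. The part of time of day in these results was not tested.

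With MMS, 0 of the 30 differed at the threshold (limma; 11 at an unadjusted p under 0.05, against 19.5% of all genes), where 0.0133% of all probe sets were lower and 0.00442% higher in the knock-out. The median difference was 0.34 against 0.03 over all genes, with 25 of 30 positive, as were 6649 of 12393 genes. The knock-out lay wholly above the wild type in 9 genes, against 9.92% of all probe sets, and wholly below in 1 (3.33%, against 7.71%). Oasl1 at 0.86 and Usp18 at 0.89 came closest, both at an adjusted p of 0.0793, followed by Ifit3 at 0.94 (adjusted p = 0.114). Without MMS knock-out array 3, 4 genes passed. Over all settings tried, 0 to 916 of all probe sets passed upward. With the 5′ to 3′ control signal as a covariate 0 passed, and the median was 0.28. The median was 0.17 after centring the arrays, with 11 of the 30 negative, and the median of all probe sets moved to -0.14. Averaged over treatment, the knock-out effect called 0 of the 30 (limma; 3 at an unadjusted p under 0.05, against 8.31% of all genes), where 0.0177% of all probe sets were lower and 0.00884% higher, and the median was 0.04. The 3 with the smallest p were Usp18 at 0.38 (adjusted p = 0.433), Irf1 at 0.36 (adjusted p = 0.488) and Parp14 at 0.21 (adjusted p = 0.620).

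The remaining genes passed in none of the 7 comparisons. The interferon-inducible GTPases, which attack pathogen vacuoles, were not called: in wild-type liver Gbp2, Igtp, Irgm1 and Iigp1 had log2 changes between -0.10 and 0.02, and Ifi47 and Gbp3 of -0.55 and -0.45. In knock-out liver the changes of the 6 lay between -0.48 and 0.05. Of these Iigp1 had the smallest p, with a change of -0.48, at 12.995, 13.05 and 12.80 in controls against 12.29, 12.50 and 12.62 after MMS (adjusted p = 0.0727). Its other probe set, nearly as bright with a mean of 12.16, had a change of only -0.11 there (adjusted p = 0.530). Eif2ak2, the translation-blocking kinase PKR, had changes of -0.10 and 0.44, and Bst2, the virus-tethering protein tetherin, of -0.21 and 0.76. Bst2 on MMS knock-out array 3 read 10.56, below its 11.33 and 11.60 on arrays 1 and 2.

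Other genes of the pathway were read from lists. Of 18 interferon genes 9 were measured, 0 passed in either genotype, and 7 had means under 5.68, so their signals were among the dimmest on the arrays. The wild-type changes with the smallest p were Ifna9 at 0.64 (adjusted p = 0.0794), Ifnb1 at 0.52, Ifnab at 0.43 and Ifna2 at 0.42. Of the 9, 8 had positive changes in wild-type liver (median 0.35) and 7 negative ones in knock-out liver (median -0.42). Of 5 receptor genes, Ifnar2, a chain of the type I receptor, fell by 0.64 in knock-out liver (SE 0.13, adjusted p = 0.0468; -0.52, adjusted p = 0.371, with the 5′ to 3′ control signal as a covariate), and 0 passed in wild-type liver, where the changes were -0.43 for Ifngr1, 0.34 for Ifnar1, -0.21 for Ifnar2 and 0.19 for Ifngr2.

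Of 13 further signalling genes, 2 rose in wild-type liver (15.4%, against 2.20% of all genes). In the knock-out 0 passed, where 0.888% of all genes rose and 0.815% fell. Socs3, a feedback inhibitor of cytokine signalling, rose by 3.07 (SE 0.70, adjusted p = 0.0291), from 7.68, 7.63 and 7.5 to 10.38, 11.74 and 9.90. In knock-out liver Socs3 read 9.82, 9.09 and 8.22 in controls, already above the wild-type controls, and 8.40, 11.13 and 8.51 after MMS. Stat3, the main transducer of interleukin-6, rose by 0.68 (SE 0.17, adjusted p = 0.0440). The changes of Ptpn1 (0.58) and Pias1 (-0.66) were not called. Of 15 nucleic acid sensing genes, Myd88, the Toll-like receptor adaptor, rose by 0.78 in wild-type liver (SE 0.15, adjusted p = 0.0170) and 0 passed in the knock-out; the changes of Tlr3, Tbk1 and Tlr4 were -0.40, 0.32 and -0.46, not called. Of 36 further induced genes, 2 fell (5.56%) and 1 rose (2.78%) in wild-type liver, close to the 5.33% and 2.20% of all genes. Gbp6 fell by 1.71 (SE 0.26, adjusted p = 0.00632), more than any of the 30 genes, and Pml, the organiser of nuclear bodies, fell by 0.69 (adjusted p = 0.0233). Isg20, an RNA exonuclease, rose by 0.89 (adjusted p = 0.0395), and the change of Lgals3bp was -0.61 (adjusted p = 0.0546). In knock-out liver Nmi, a partner of Ifi35, rose by 1.22 (SE 0.22, adjusted p = 0.0370) and Daxx by 0.94 (SE 0.20, adjusted p = 0.0495). With the 5′ to 3′ control signal as a covariate their changes were 0.63 (adjusted p = 0.255) and 0.52 (adjusted p = 0.423), and both read highest on MMS knock-out arrays 1 and 2.

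Some cell type markers also passed the threshold, and in bulk liver fewer cells of a type and less RNA per cell cannot be told apart. In wild-type liver, 5 of 18 endothelial and 4 of 14 stellate or fibroblast markers fell, 2 of 13 macrophage markers fell and 1 rose, and 2 of 10 neutrophil markers rose, where 5.33% of all genes fell and 2.20% rose. One each of 7 B cell, 9 T cell and 6 plasmacytoid dendritic markers fell. In knock-out liver 1 of 18 endothelial markers, Oit3, fell and 1 of 7 bile duct markers, Krt19, rose, where 0.815% of all genes fell and 0.888% rose. Neither Oit3 (adjusted p = 0.0519) nor Krt19 (adjusted p = 0.411) passed with the covariate. Summed linear signal of the endothelial list ran from 19087 to 20791 in wild-type controls and from 15041 to 15956 after MMS, and from 18535 to 20086 and 16576 to 18331 in the knock-out. The macrophage list ran from 24668 to 32753 and 21636 to 26019 in the wild type, and from 29451 to 35169 and 25782 to 33561 in the knock-out. The neutrophil list ran from 670 to 762 and 1674 to 4963 in the wild type, and from 721 to 992 and 1238 to 3978 in the knock-out. The stellate and fibroblast list ran from 16434 to 24302 and 11080 to 12689 in the wild type, and from 16626 to 16912 and 14769 to 18829 in the knock-out. No listed marker read 0, since all values are above 2.21. The part of these shifts in the changes of the interferon response genes was not tested.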

How the data were processed

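Per the labels' protocols, liver RNA of 12 mice in 4 groups was isolated with Trizol and turned into biotinylated cRNA. The authors deposited log2 expression values, 1 for each probe set on each array, made with RMA, per the submitters' processing notes. Its version and the set of arrays it was run on are not stated in the labels, and the log base was inferred from the range of the values (2.21 to 14.70). RMA puts the arrays on one scale, which hides any shift common to most transcripts. No detection calls were used, so a dim probe set cannot be told from an absent one, and 3 arrays a group limit the precision.

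Samples were grouped by their titles; the table had 0 extra sample columns. Of 22690 probe sets, 64 controls were set aside and 22626 tested. Of these, 20380 had 1 symbol, 691 several and 1555 none. The current symbol was found through the gene identifier for 20351 (RefSeq, GRCm38.p6), whether or not it differed from the platform's. limma 3.58.1 in R 4.3.3 fitted 1 mean per group to all 12 arrays (8 residual degrees of freedom), with Benjamini-Hochberg adjustment over all probe sets at 0.05, and was tested on simulated data. Genes past the threshold or among the 3 smallest p of a comparison are named with values; in the other pathway lists, those past the threshold in a single genotype and up to 4 by p in wild-type liver. Exact permutations swapped labels within genotype or treatment.

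The members and lists were chosen with earlier results of these data known. Chosen after values were seen were 2 added alternatives (both knock-out arrays numbered 3 left out; the control signal covariate), the promoters printed, the genes drawn and the looser GAS spelling. Arrays were not paired by animal number, except where a replicate block is named. Correlations of same-numbered arrays ran from -0.48 to 0.40, and between the 2 knock-out groups they were 0.40, 0.01 and 0.28. They were not compared with those of differently numbered arrays, so they do not show whether the numbers pair arrays.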

Additional observations from a re-analysis of the deposited data

Results flagged for a closer look

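In 3 interferon response genes every MMS array lay below the controls in wild-type liver and above them in knock-out liver. Of all probe sets, 0.835% did the same and 1.03% the reverse. The difference of the responses was 1.55 for Oasl1 (SE 0.21, adjusted p = 0.0649), 1.03 for Usp18 (SE 0.23, adjusted p = 0.113) and 1.44 for Dhx58 (SE 0.34, adjusted p = 0.128). The separation of the arrays singled them out, and the limma test of the difference itself did not pass for any of the 3. The responses were -0.64 and 0.91 for Oasl1, -0.63 and 0.40 for Usp18 and -0.52 and 0.92 for Dhx58, in wild type and knock-out.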

How the results depend on the processing

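No called gene changed sign under any of the 10 other settings or the 12 fits that left out 1 array. In wild-type liver the 6 lower genes became 2 with quantile normalization, 1 with median centring, 3 with the spread of the compared groups alone, 2 with the replicate block and 11 with array weights, and the higher genes 1 with centring and 1 with weights; the median became -0.24 with centring. In knock-out liver the 2 higher genes became 1 with quantile normalization or centring, 7 with the filter on low values, 6 with trended variance, 0 with the groups' own spread, the replicate block or the covariate, 11 with weights and 9 without both knock-out arrays numbered 3. Lower genes there became 1 with the filter, 1 with trended variance, 2 with weights and 4 without those arrays, and the median 0.039 with weights. Between control groups weights gave 1 lower. Between MMS groups the filter and trended variance gave 2 higher, weights 6 and leaving out those arrays 4, with a median of 0.19 after quantile normalization and 0.17 after centring. For the difference of responses the filter, trended variance and averaging a gene's probe sets gave 1 higher, those arrays' omission 2, and weights 8 higher and 1 lower; its median was 0.37 with quantile normalization, 0.29 with centring, 0.39 with the mean of probe sets, 0.39 with weights and 0.42 with the covariate. For the averaged response lower genes numbered 1 with centring, the block or the mean of probe sets, 9 with weights, 8 without those arrays and 0 with the covariate; higher genes numbered 7 with weights and 1 with the covariate. The cause of these shifts was not tested.

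Leaving out 1 array gave 0 to 6 lower genes in wild-type liver and 0 to 9 higher and 0 to 2 lower in knock-out liver, with medians of -0.46 to -0.38 and 0.13 to 0.35. It gave 0 to 4 higher between MMS groups (median 0.20 to 0.40), 0 to 2 for the difference (median 0.42 to 0.57), and 0 to 3 lower and 2 to 5 higher for the averaged response (median -0.16 to -0.07). With the replicate block, Rsad2 (adjusted p = 0.0407) and Ifit1 (0.0397) kept their wild-type calls; Ifit2 (0.0748), Oasl1 (0.0532), Usp18 (0.0574) and Cmpk2 (0.0522) did not. Over all settings, all probe sets gave 223 to 2911 lower calls in wild-type liver and 0 to 3168 higher calls in knock-out liver.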
